A study of Mus musculus with 16 samples.

Results

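The mRNA levels of 9 enzymes that make or break down heme were followed in mouse liver: Alas1, Alad, Uros, Urod, Cpox, Ppox and Fech on the side of synthesis, and Hmox1 and Blvrb on the side of breakdown. They were taken by gene symbol from the 57010 rows of the liver expression table, a choice made with earlier results of these data known. All 9 were tested, with the other genes that averaged 1 TPM or more over the libraries (11766 in all). TPM values are divided by transcript length and add up to a common total in every library, so levels can be compared between genes, while the sequencing depth is unknown.

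Heme is the iron-holding ring of hemoglobin and the cytochromes, and the liver makes it mainly for its cytochrome P450 enzymes. Synthesis starts in the mitochondrion with Alas1, which joins glycine to succinyl-CoA in the rate-limiting step, passes through the cytosol, where Alad, Uros and Urod help to build the porphyrin ring, and ends in the mitochondrion, where Cpox and Ppox oxidise the ring and Fech inserts the iron. Heme oxygenase (Hmox1, which is induced by heme, metals and oxidants, and Hmox2, which is largely constitutive) opens the ring to free iron and biliverdin. Biliverdin reductases turn biliverdin into bilirubin, Blvra the isomer that heme oxygenase makes and Blvrb other isomers.

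Liver RNA came from 16 adult wild-type C57BL/6J mice, all male and with no engineered allele, with 4 mice in each of 4 groups. The Cd group received CdCl2 into the peritoneum at 1.25 mg/kg per day for 7 days, the Se group ate a diet with 2 ppm selenomethionine (SeMet) for 3 months, the Cd+Se group received both, with CdCl2 over the final 7 days, and the control group received neither. The sources do not state whether control and Se mice were injected, or with what, so the injections and Cd cannot be told apart. Each mouse is represented by 1 library, whose title names a pair of repeats that are not explained.

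The group labels were checked with Mt1, the metal-binding metallothionein, which lay between 50.9 and 221 TPM in control mice and between 3178 and 4899 TPM in Cd mice. In Cd+Se mice it lay between 3621 and 6070 TPM, and in Se mice between 64.3 and 431 TPM. The median level of the genes tested was between 5.41 and 9.29 TPM over the libraries, lowest in Cd mouse 5 and highest in Se mouse 40. Cd mouse 5 also had the highest share of mitochondrial transcripts (22.2%, against 12.8% to 18.04% in the other libraries). Over all genes tested, the median log2 difference between Cd and control was -0.17, and it became -0.01 with quantile normalization and 0.05 once every library was centred on its own median (centring). For Cd+Se against Cd it was 0.17, 0.01 and -0.02 in the same order. Genes that were higher made up 18.9% of those called between Cd and control as deposited, 42.9% with quantile normalization and 55.6% after centring, and 85.3%, 56.3% and 42.4% between Cd+Se and Cd. The mRNAs come from bulk tissue, in which fewer cells of a type and less RNA per cell cannot be told apart.

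After Cd, the mRNAs of 3 synthesis enzymes fell and those of 2 enzymes rose. Alas1 fell to 0.266 of its control level, Cpox to 0.487 and Urod to 0.737, while Ppox rose to 1.44 times and Hmox1 to 1.83 times the control level. The other 4 (Alad, Uros, Fech and Blvrb) did not pass the threshold, an adjusted p under 0.05 in limma over all genes tested. The 5 of 9 called stand beside 30.8% of all genes tested, the 3 lower beside 24.9% and the 2 higher beside 5.82%. The values of Cd and control mice did not overlap for 5 of 9 (Alas1, Urod, Cpox, Hmox1 and Blvrb), beside 34.2% of all genes tested.

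Between mice given Se with Cd and mice given Cd alone, 3 of the 9 were called, beside 15.9% of all genes tested. Alas1 rose to 2.29 times and Hmox1 to 2.36 times their level in Cd mice (2 of 9 higher, beside 13.6%), and Alad fell to 0.703 of it (1 of 9 lower, beside 2.35%). The values of Cd+Se and Cd mice did not overlap for Alas1 and Hmox1, 2 of 9, beside 19.2% of all genes tested. Alas1 was thus lower after Cd and higher with Se added, whereas Hmox1 was higher in both comparisons. Both comparisons use the same 4 Cd mice, so they are not independent of each other.

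**Figure D1:**
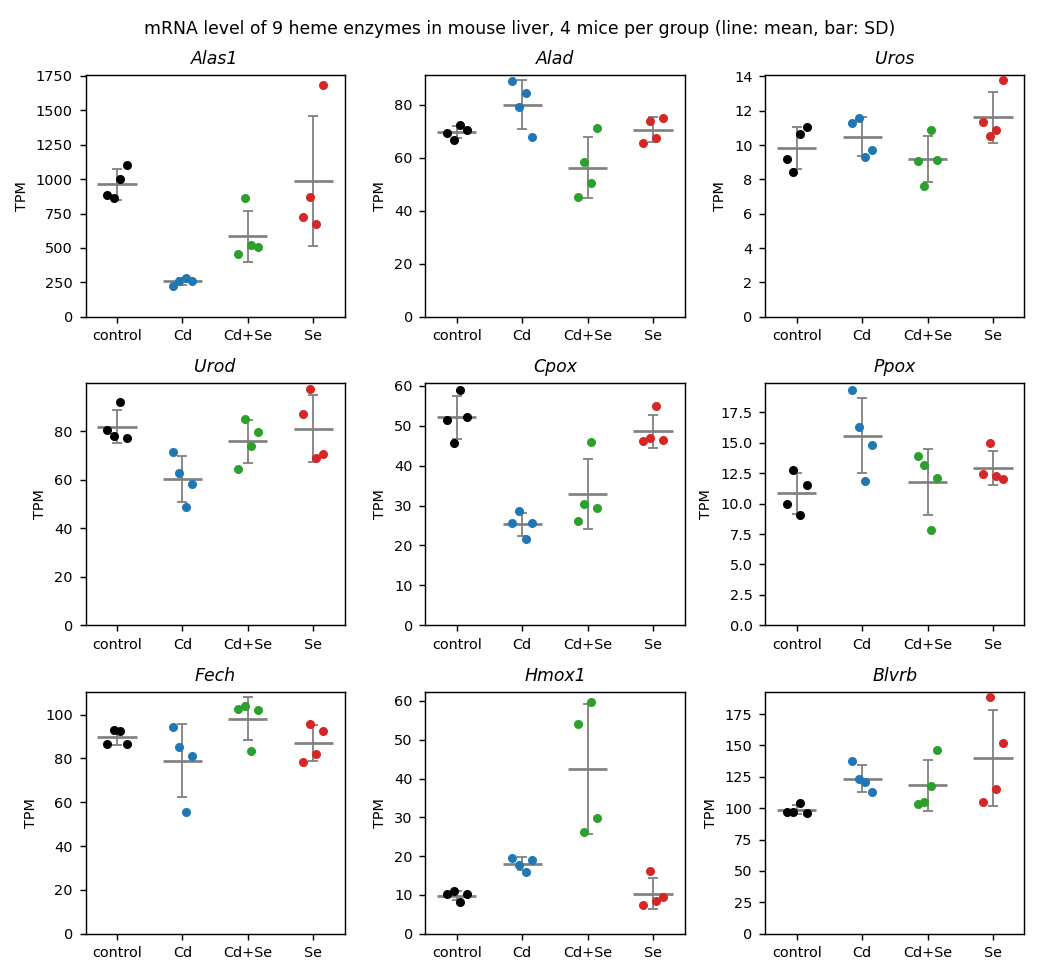
Levels of the 9 enzyme mRNAs in TPM (vertical axes, each from 0) by group (horizontal axes), with 1 point per mouse, a line at the mean and a bar of 1 SD (n = 4). The Cd points of Alas1 (222 to 282 TPM) and Cpox (21.6 to 28.7 TPM) lie under all control points, and those of Hmox1 climb from 15.9 to 19.6 TPM with Cd to 26.3 to 59.7 TPM with Cd and Se.

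Alas1 was the most abundant of the 9 mRNAs in control liver, at 881, 862, 999 and 1106 TPM in the 4 mice (962 ± 113, SD, n = 4). The 4 Cd mice had 222, 258, 282 and 262 TPM (256 ± 25.2). The groups were far apart, with every Cd mouse under the lowest control mouse. The log2 difference was -1.91 (standard error 0.245, limma adjusted p = 0.000161), which ranked 61 in size among the 11766 genes. It passed the threshold in each of the 26 alternative settings tried, between -1.98 and -1.69.

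With Se and Cd together, Alas1 was at 453, 859.9, 521 and 509 TPM (586 ± 185). Mouse 14 stood above the other 3, and all 4 lay above the Cd mice. The log2 difference from Cd was 1.15 (standard error 0.245, limma adjusted p = 0.0101), and leaving out single mice moved it between 0.95 and 1.26. The highest Cd+Se value, 859.9 TPM, was just under the lowest control value, 862 TPM, and the log2 difference from control, -0.75, did not pass the threshold (95% interval -1.27 to -0.24, limma adjusted p = 0.240). Se alone gave 724, 869, 672 and 1687 TPM (988 ± 473), a spread that covered the whole control range.

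Alas1 supplied most of the mRNA of the 7 synthesis enzymes. Of their summed TPM, it made up 73.9% to 78.2% in control mice and 41.6% to 54.95% in Cd mice. The share was 62.6% to 74.2% in Cd+Se mice and 69.4% to 84.4% in Se mice. The sum of the other 6 moved less, from 304 to 335 TPM in control mice to 231 to 311 TPM in Cd mice. It was 261 to 304 TPM in Cd+Se mice and 297 to 339 TPM in Se mice.

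Of the cytosolic steps, Urod, which decarboxylates uroporphyrinogen, fell after Cd. Its levels were 80.4, 77.9, 91.8 and 77.0 TPM in control mice and 71.4, 62.9, 48.7 and 58.1 TPM in Cd mice. The groups did not overlap, and the gap between them was narrow. In limma this was a log2 difference of -0.44 (standard error 0.139, adjusted p = 0.0240). The call was lost without control mouse 29 (adjusted p = 0.0777), without Cd mouse 5 (0.0752), without Cd mouse 6 (0.0510) and after centring (-0.22, 0.0851). The Cd+Se mice had 64.6, 85.1, 73.9 and 79.6 TPM, which overlapped both groups, and their log2 difference from Cd, 0.33, was not past the threshold (95% interval 0.04 to 0.63, limma adjusted p = 0.109).

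Alad, which joins a pair of aminolevulinate molecules and is a zinc enzyme, was at 69.5, 66.7, 72.2 and 70.6 TPM in control mice. Cd mice had 88.9, 79.3, 84.5 and 67.8 TPM, 3 of them above the control range and mouse 6 within it. The log2 difference of 0.19 did not pass the threshold as deposited (95% interval -0.08 to 0.46, limma adjusted p = 0.269), but did after centring (0.41, adjusted p = 0.0196). In Cd+Se mice Alad was at 45.1, 58.5, 50.6 and 71.2 TPM, where mouse 16 overlapped the Cd group and the other 3 lay under it. The log2 difference from Cd was -0.51 (standard error 0.127, limma adjusted p = 0.0172). Fitting the 2 groups alone gave a limma adjusted p of 0.0938, a setting that called 66 of all 11766 genes tested, against 1876.

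Uros, which closes the ring, was a low mRNA at 8.45 to 11.1 TPM in control mice and 9.32 to 11.6 TPM in Cd mice. It was at 7.61 to 10.9 TPM in Cd+Se mice and 10.5 to 13.8 TPM in Se mice. All of these ranges overlapped, and Uros passed the threshold in none of the 6 comparisons.

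Cpox, the first of the enzymes back in the mitochondrion, had the second clear fall. Control mice had 51.6, 45.8, 58.9 and 52.2 TPM (52.1 ± 5.35), and Cd mice 25.6, 28.7, 21.6 and 25.6 TPM (25.4 ± 2.88). No value of either group came near the other. In limma this was a log2 difference of -1.01 (standard error 0.148, adjusted p = 0.000339), which passed the threshold in each of the 26 alternatives, between -1.07 and -0.79.

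Cpox with Se and Cd was at 26.2, 30.4, 45.9 and 29.4 TPM (32.98 ± 8.81). Mouse 15 reached the control range, and the other 3 lay at or just above the Cd values. The log2 difference from Cd was 0.34 (95% interval 0.03 to 0.65, limma adjusted p = 0.122). The difference from control was -0.67 (95% interval -0.98 to -0.36, limma adjusted p = 0.0615), and without mouse 15 it was -0.84 and past the threshold (adjusted p = 0.00318). It was also past it with quantile normalization (adjusted p = 0.0464) and among protein-coding genes (0.0442).

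Ppox, the next step, moved the other way from Cpox. Control mice had 9.96, 12.8, 9.07 and 11.5 TPM and Cd mice 19.3, 16.3, 11.9 and 14.8 TPM. The groups overlapped at Cd mouse 5. The log2 difference was 0.48 (standard error 0.171, limma adjusted p = 0.0439). This call was the least stable of the 5. It was lost in 12 of 26 alternatives, among them those without control mouse 27 (adjusted p = 0.0971), 29 (0.127) or 30 (0.0609), without Cd mouse 1 (0.120), 2 (0.0880) or 6 (0.0670), and without any filter on low values (0.0965). Leaving out Cd+Se mouse 16 or Se mouse 39, 41 or 44, which are in neither group, also lost it, at adjusted p between 0.0516 and 0.0530. The difference was larger with quantile normalization (0.66) and after centring (0.70).

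In Cd+Se mice Ppox was at 13.9, 13.2, 7.83 and 12.1 TPM, with mouse 15 the lowest. The log2 difference from Cd was -0.39 as deposited (95% interval -0.75 to -0.03, limma adjusted p = 0.126). It passed the threshold with quantile normalization (-0.55, adjusted p = 0.0197) and after centring (-0.58, adjusted p = 0.0127).

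Fech, which inserts iron, was at 86.7, 92.8, 92.5 and 86.8 TPM in control mice. In Cd mice it was at 94.2, 85.4, 55.4 and 81.0 TPM, where mouse 5 stood far under the other 3. The log2 difference was -0.21 (95% interval -0.50 to 0.09, limma adjusted p = 0.276), and it became 0.01 after centring. Cd+Se mice had 103, 104, 83.5 and 102 TPM, and the difference from Cd was 0.33 (95% interval 0.03 to 0.63, limma adjusted p = 0.114), which passed the threshold with quantile normalization (0.30, adjusted p = 0.0345).

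Hmox1 was the lone member called between mice given Cd with Se and control mice. At an unadjusted p under 0.05 in limma there were 4 of 9, beside 1286 of all 11766 genes tested. Control mice had 10.2, 10.9, 8.08 and 10.2 TPM (9.85 ± 1.23), Cd mice 19.6, 17.7, 15.9 and 18.9 TPM (18.02 ± 1.64), Cd+Se mice 54.0, 26.3, 59.7 and 29.9 TPM (42.5 ± 16.8), and Se mice 7.29, 16.2, 8.52 and 9.37 TPM (10.3 ± 4.0). The control, Cd and Cd+Se groups formed 3 separate steps with no overlap, and within Cd+Se, mice 13 and 15 lay well above mice 14 and 16. Se mouse 40 reached the lower edge of the Cd group.

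The log2 difference of Hmox1 between Cd and control was 0.81 (standard error 0.247, limma adjusted p = 0.0211). It missed the threshold without control mouse 29 (0.73, adjusted p = 0.0650) and without the filter on low values (adjusted p = 0.0603). Against Cd, the Cd+Se mice were higher by 1.11 (standard error 0.247, limma adjusted p = 0.0122), and 0.0636 was the adjusted p when these groups were fitted alone. Against control they were higher by 1.92 (standard error 0.247, limma adjusted p = 0.000921), or 4.31 times the control TPM, 1 of 9 called beside 0.484% of all genes tested. Against Se they were higher by 1.91 (standard error 0.247, limma adjusted p = 0.000994), again 1 of 9, beside 0.714%. The limma adjusted p of the last comparison was 0.105 when the groups were fitted alone. Such fits called fewer of all genes tested, 66 against 1876 for Cd+Se against Cd and 11 against 84 for Cd+Se against Se. Hmox2 did not pass the threshold in any comparison, with 30.6 to 35.4 TPM in control mice and 20.9 to 32.2 TPM in Cd mice.

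Hmox1 is also expressed in macrophages and other immune cells, so markers of these cells are given beside it. Of 8 Kupffer cell markers, 7 fell between control and Cd as deposited, beside 24.9% of all genes tested. With quantile normalization or after centring 6 fell. The summed level of the 8 went from 121 to 148 TPM in control mice to 42.2 to 62.2 TPM in Cd mice. The sum was 42.5 to 76.1 TPM in Cd+Se mice and 66.2 to 162 TPM in Se mice. Of 6 monocyte and neutrophil markers tested of 8, 5 rose between control and Cd as deposited, beside 5.82% of all genes tested. With quantile normalization or after centring 6 rose. The sum of the 8 went from 8.66 to 18.6 TPM in control mice to 35.7 to 46.1 TPM in Cd mice. It was 51.1 to 82.8 TPM in Cd+Se mice and 7.38 to 11.3 TPM in Se mice. Ly6g, a defining neutrophil gene, was listed at 0 in all 4 Cd+Se mice and at most at 0.17 TPM elsewhere. From Cd to Cd+Se none of the 6 monocyte and neutrophil markers was called (1 of 6 at an unadjusted p under 0.05). Of the 8 Kupffer cell markers 1 rose as deposited, beside 13.6% of all genes tested, and 0 after centring. Between Cd+Se and control, 4 of the 6 monocyte and neutrophil markers were higher, beside 37 of all 11766 genes tested. In the same comparison 4 of the 8 Kupffer cell markers were lower, beside 20 of 11766. Between Cd+Se and Se, 5 of the 6 were higher, beside 64 of 11766, and 4 of the 8 were lower, beside 20 of 11766. The part of these cells in the Hmox1 differences was not tested.

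Blvrb, a biliverdin reductase that is also abundant in red cells, was at 97.1, 96.8, 104 and 96.5 TPM in control mice. Cd mice had 138, 123, 121 and 113 TPM, all above the control mice. The log2 difference of 0.32 did not pass the threshold (95% interval -0.02 to 0.66, limma adjusted p = 0.139). It did with quantile normalization (0.37, adjusted p = 0.0438), after centring (0.54, adjusted p = 0.00506) and with these groups fitted alone (adjusted p = 0.0349). Se mice had 105, 188, 115 and 152 TPM and Cd+Se mice 103, 105, 118 and 147 TPM, so that Se mice were also all above control (log2 difference 0.46, 95% interval 0.12 to 0.80, limma adjusted p = 1).

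Blvra, the other biliverdin reductase, was not called in any comparison. It was at 8.23 to 13.2 TPM in control mice and 7.30 to 9.71 TPM in Cd mice. Its log2 difference of -0.33 was of the other sign than that of Blvrb (95% interval -0.62 to -0.05, limma adjusted p = 0.0670). Of 11 red cell markers, the 5 tested (the globin genes and Alas2) were called in neither direction. The summed level of the 11 overlapped between groups, at 625 to 1684 TPM in control, 800.2 to 1389 TPM in Cd, 731 to 1568 TPM in Cd+Se and 912 to 1726 TPM in Se mice. Alas2, the red cell form of the Alas1 enzyme, was at 38.9 to 55.3 TPM in control and 34.6 to 40.8 TPM in Cd mice (log2 difference -0.31, 95% interval -0.69 to 0.07).

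**Figure D2:**
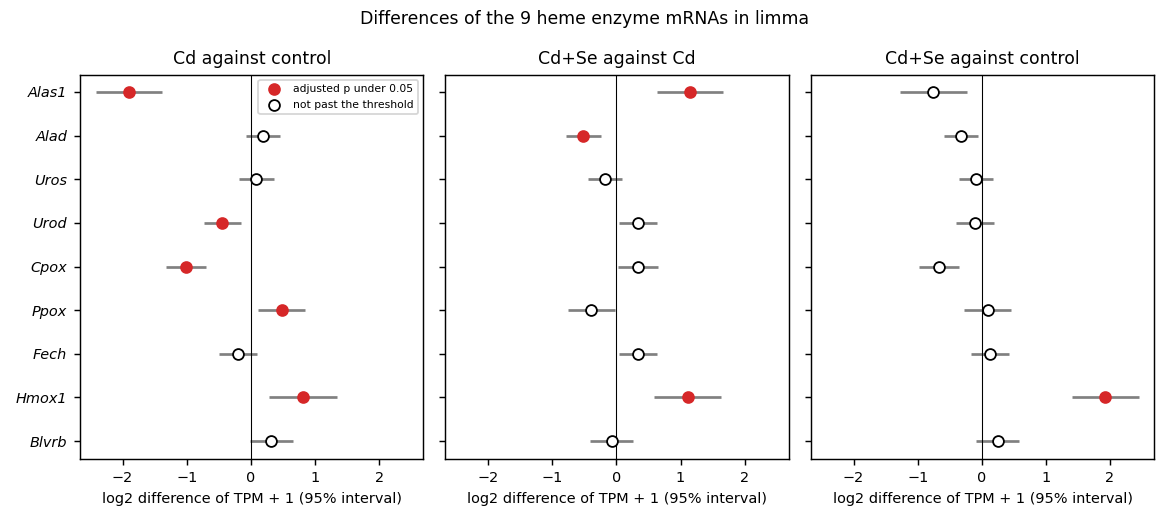
Log2 differences of TPM + 1 (horizontal axes) of the 9 enzyme mRNAs (rows) in 3 comparisons, with 95% intervals from limma as bars and filled points where the adjusted p was under 0.05. Filled points stand at -1.91 for Alas1 and 0.81 for Hmox1 after Cd, at 1.15 and 1.11 with Se added, and at 1.92 for Hmox1 in the last panel.

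Se alone gave no call among the 9 in limma, beside 0% of all genes tested. At an unadjusted p under 0.05 it gave 1 of 9, Blvrb, beside 3.86%. The interaction term asks whether the difference made by Cd was the same with and without Se in the diet. It was called for none of the 9, beside 1.04% of all genes tested, and 6 of 9 had an unadjusted p under 0.05, beside 21.3%. It was 1.21 for Alas1 (95% interval 0.48 to 1.94, limma adjusted p = 0.0853) and 1.10 for Hmox1 (95% interval 0.36 to 1.84, limma adjusted p = 0.106). The other 4 were negative, at -0.53 for Alad, -0.40 for Uros, -0.63 for Ppox and -0.54 for Blvrb. Without Se mouse 44 the interaction of Alas1 passed the threshold (1.501, adjusted p = 0.0336), and without Se mouse 40 that of Hmox1 did (1.32, adjusted p = 0.0423).

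A ratio of a pair of mRNAs in the same library is not changed when a library is multiplied by a single factor. The ratios use the same values as the differences above, so they are not independent of them. Alas1 over Alad, the entry step over the next, was 12.7 to 15.7 in control mice, 2.49 to 3.86 in Cd mice, 7.15 to 14.7 in Cd+Se mice and 9.93 to 22.4 in Se mice. The Cd mice lay apart from the other 3 groups. Cpox over Ppox was 3.58 to 6.49, 1.32 to 1.82, 1.88 to 5.86 and 3.12 to 4.47 in the same order. Again no other mouse fell in the Cd range, but the gap to the Cd+Se mice was narrow. Cpox over Fech was 0.493 to 0.636, 0.271 to 0.391, 0.255 to 0.550 and 0.490 to 0.669, so that the Cd+Se range enclosed the Cd range. For Hmox1 over Hmox2 the ratios were 0.242 to 0.356, 0.550 to 0.758, 0.898 to 1.61 and 0.250 to 0.389, so that in 2 of the Cd+Se mice the inducible mRNA exceeded the constitutive form. Alas1 over Hmox1, the entry enzyme of synthesis over the inducible heme oxygenase, fell from 79.0 to 124 in control mice to 11.3 to 17.8 in Cd mice. It was 8.38 to 32.7 in Cd+Se mice, a range around that of the Cd mice, and 53.6 to 180.0 in Se mice. This ratio leaves out Hmox2, whose mean was above that of Hmox1 in control (32.5 and 9.85 TPM) and Cd mice (28.8 and 18.02 TPM). It is a ratio of 2 mRNAs and no measure of heme made or broken down.

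**Figure D3:**
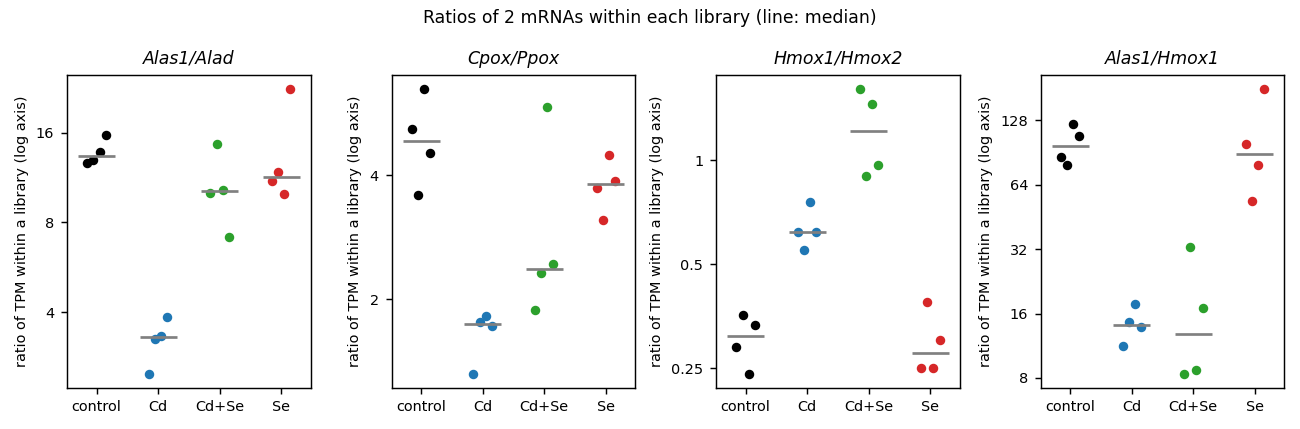
Ratios of the TPM of a pair of mRNAs within each library (log axes), with 1 point per mouse and a line at the group median. The Cd points of Alas1/Alad (2.49 to 3.86) and Cpox/Ppox (1.32 to 1.82) lie under all others, whereas Alas1/Hmox1 is low in both Cd (11.3 to 17.8) and Cd+Se mice (8.38 to 32.7).

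The 3 synthesis genes that fell after Cd are shown with the sequence before their start sites, from RefSeq (GRCm38.p6), which held promoters of 7 of the 9 (not Fech or Hmox1). Cpox, with its promoter at chr16:58669958-58670207 on the plus strand, is shown because whole matches to the core that the metal-responsive factor MTF1 recognises (TGCACNC or TGCGCNC, either strand, in capitals) lie in it:
Cpox: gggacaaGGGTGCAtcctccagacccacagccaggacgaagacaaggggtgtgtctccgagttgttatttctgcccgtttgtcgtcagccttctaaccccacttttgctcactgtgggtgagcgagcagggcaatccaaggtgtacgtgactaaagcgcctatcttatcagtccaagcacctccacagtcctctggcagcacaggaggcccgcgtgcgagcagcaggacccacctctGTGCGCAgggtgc
Urod, at chr4:116994414-116994663 on the minus strand, is shown for its E-box (CACGTG, in capitals), the letters bound by clock and MYC-type factors:
Urod: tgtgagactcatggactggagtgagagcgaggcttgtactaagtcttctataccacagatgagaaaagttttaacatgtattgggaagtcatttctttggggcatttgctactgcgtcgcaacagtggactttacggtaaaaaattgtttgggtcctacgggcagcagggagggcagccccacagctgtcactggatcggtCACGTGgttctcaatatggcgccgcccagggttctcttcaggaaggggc
For Alas1, the 30 bases at chr9:106247906-106247935 on the minus strand are shown, around a match to the site of NRF1, a factor of mitochondrial genes (in capitals), which lies 29 bases after one of its RefSeq starts and 195 bases before the other:
Alas1: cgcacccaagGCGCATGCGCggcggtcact

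These motifs are common in windows of this kind (250 bases before and 50 after the start). The metal response core was found in 25.7% of the 32851 RefSeq windows and in 2 of the 7 members (Alas1 and Cpox), the E-box in 7.15% and in 3 (Alad, Uros and Urod), and the NRF1 site in 6.23% and in 2 (Alas1 and Uros). A core of the antioxidant response element (TGACNNNGC) was in 12.4% of windows, the AP-1 letters TGANTCA in 7.81% and the nuclear receptor half-site AGGTCA in 16.3%, and none of the 7 held any of these. The shares are per window, whereas a member was counted when any of its windows held a match. Alas1, Alad, Uros and Blvrb have 2 windows each, so the counts and the shares are not in the same unit. All were searched on both strands, and the metal response core and the NRF1 site can share letters. In GENCODE M21 (GRCm38), matched by the Ensembl identifiers of the table, Alas1 (ENSMUSG00000032786) lies at chr9:106233455-106248654, Urod (ENSMUSG00000028684) at chr4:116989965-116994413, Cpox (ENSMUSG00000022742) at chr16:58670292-58717636 and Hmox1 (ENSMUSG00000005413) at chr8:75093621-75100589.

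Around the enzymes, genes that serve heme synthesis (substrate supply, mitochondrial transport and turnover of the Alas1 protein) were followed as a list, which is not reported in full, so its split of directions holds for the reported genes alone. Of these 14, 6 fell and 0 rose between control and Cd, beside 24.9% and 5.82% of all genes tested. The median log2 difference was -0.33 (all genes -0.17), whereas after centring 3 were lower and 1 was higher. Lonp1, a mitochondrial protease that degrades Alas1 when heme is plentiful, fell by 0.61 (limma adjusted p = 0.00270). Sucla2, a subunit of succinyl-CoA synthetase, fell by 0.59 (adjusted p = 0.00981), and Abcb10, an inner membrane transporter, fell by 0.52 (adjusted p = 0.0180), although Abcb10 was not called with either other scaling (0.0614 and 0.0684).

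With Se added to Cd, 3 of these 14 rose and 0 fell, beside 13.6% and 2.35% of all genes tested. After centring 2 were higher and 1 was lower. Clpx, whose protein is a mitochondrial unfoldase that acts on Alas enzymes, rose by 0.77 (limma adjusted p = 0.0203). It went from 14.6 to 22.2 TPM in Cd mice to 23.6 to 52.1 TPM in Cd+Se mice. Slc25a39, the mitochondrial glutathione carrier, rose by 0.49 (adjusted p = 0.0201), and Lonp1 by 0.40 (adjusted p = 0.0421, but 0.0633 after centring).

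Of 17 genes that handle heme and bilirubin after the enzymes, 2 rose and 3 fell between control and Cd as deposited (median -0.05). Over all genes tested, 5.82% rose and 24.9% fell. After centring 5 of the 17 were higher and 3 lower (median 0.17). Por, the reductase that passes electrons to heme oxygenase and the P450 enzymes, was at 157 to 194 TPM in control mice and 65.9 to 69.6 TPM in Cd mice. It was at 110 to 262 TPM in Cd+Se mice, so that Cd mice lay apart from both. The log2 difference was -1.39 between Cd and control (limma adjusted p = 0.00146) and 1.20 between Cd+Se and Cd (adjusted p = 0.0117). Slco1b2, a liver uptake carrier for bilirubin, fell by 0.83 (adjusted p = 0.00116) and was 0.63 higher with Se added (adjusted p = 0.0155). Hp, the haptoglobin that captures free hemoglobin and is an acute phase protein, rose by 0.82 after Cd (adjusted p = 0.0284). With Se added, 3 of 17 rose and 0 fell as deposited (2 higher and 2 lower after centring), beside 13.6% and 2.35% of all genes tested. The third was Flvcr1, a heme exporter (0.37, limma adjusted p = 0.0343), which was not called with either other scaling. Thus Hmox1 and Por, which work together in ring opening, moved apart after Cd and together when Se was added.

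**Figure D4:**
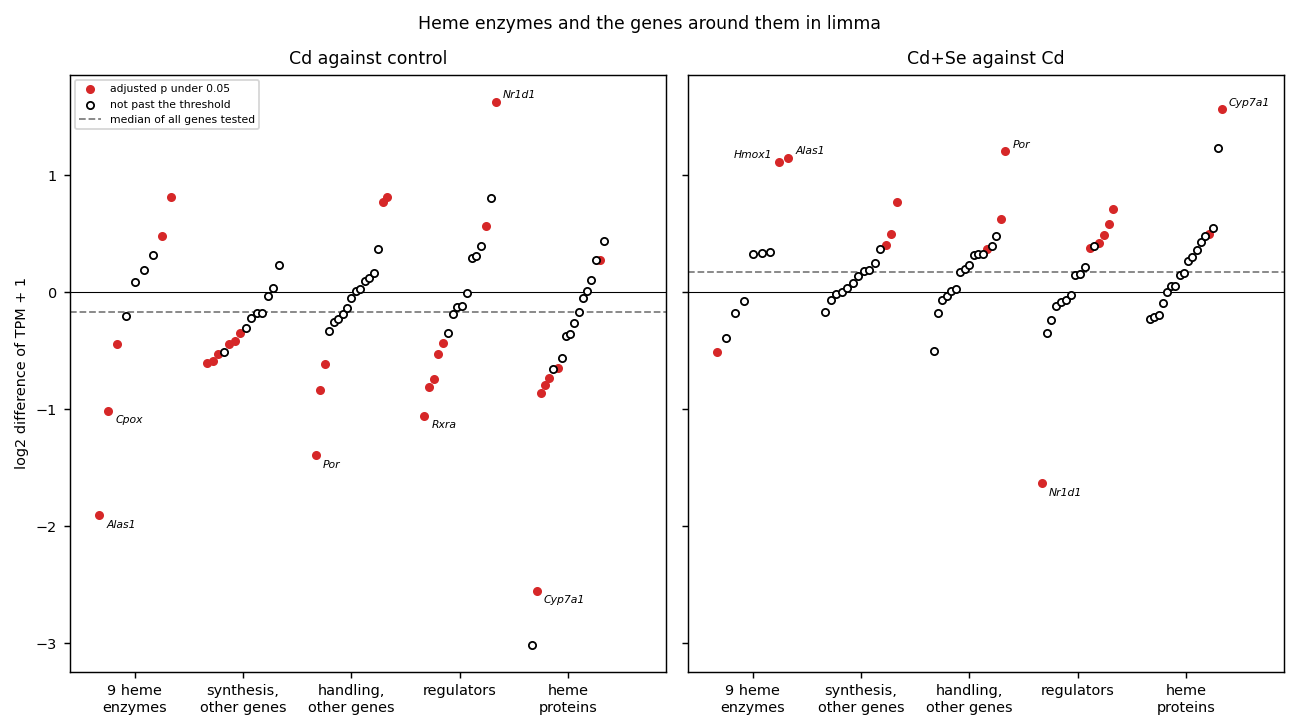
Log2 differences of TPM + 1 (vertical axis) of the 9 enzymes and of 4 lists of genes around them (horizontal axis, ordered by size within each list) for Cd against control and Cd+Se against Cd. Filled points had a limma adjusted p under 0.05, and the dashed line is the median of all genes tested (-0.17 and 0.17). Alas1, Por and Cyp7a1 lie low on the left and high on the right, and Nr1d1 the reverse.

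Among 16 regulators of heme genes, 2 rose and 5 fell between control and Cd as deposited (median -0.12). Over all genes tested, 5.82% rose and 24.9% fell. With quantile normalization 5 of the 16 were higher and 4 lower (median 0.02). After centring 6 were higher and 4 lower (median 0.10), so the balance depended on the scaling. Between Cd+Se and Cd, 5 rose and 1 fell as deposited (median 0.15), beside 13.6% and 2.35% of all genes tested. With quantile normalization 3 were higher and 1 lower (median 0.03), and after centring 2 were higher and 2 lower (median -0.04). Nr1d1, which encodes REV-ERB alpha, a heme-binding repressor of the circadian clock, was at 7.32, 15.7, 9.64 and 13.8 TPM in control mice and 56.2, 43.99, 24.7 and 29.01 TPM in Cd mice. In Cd+Se mice it was at 16.5, 11.6, 6.70 and 11.7 TPM, within the reach of control. Its log2 difference was 1.63 after Cd (limma adjusted p = 0.00145) and -1.63 with Se added (adjusted p = 0.00635). The hour at which the livers were taken is not in the sources, and its part in this difference was not tested.

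Rxra, the shared partner of many nuclear receptors, fell by 1.05 after Cd (limma adjusted p = 5.01e-05) and was 0.72 higher with Se added (adjusted p = 0.00383). It lay at 88.7 to 98.3 TPM in control, 36.7 to 50.4 TPM in Cd and 63.7 to 81.9 TPM in Cd+Se mice, with no overlap between the 3 groups. Of the 16 regulators it was the 1 called for the interaction, beside 1.04% of all genes tested. Hnf4a, a hepatocyte transcription factor, fell by 0.81 (adjusted p = 0.00173) and was 0.58 higher with Se added (adjusted p = 0.0239). These 3 kept their calls under both other scalings. Of 8 hepatocyte markers, Hnf4a among them, 3 fell after Cd as deposited, beside 24.9% of all genes tested. Between Cd+Se and Cd 3 rose, beside 13.6%. With centring, 2 were higher and 2 lower after Cd, and 2 higher and 1 lower between Cd+Se and Cd. Their summed level was 62927 to 83531 TPM in control, 40779 to 67740 TPM in Cd, 51609 to 72855 TPM in Cd+Se and 61507 to 113532 TPM in Se mice. The part of hepatocyte content in the enzyme differences was not tested.

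Of 18 liver proteins that carry heme, 5 fell and 1 rose after Cd as deposited (median log2 difference -0.36). Over all genes tested, 24.9% fell and 5.82% rose. With quantile normalization 7 of the 18 were lower and 0 higher (median -0.43), and after centring 4 were lower and 2 higher (median -0.14). Cyp7a1, the rate-limiting enzyme of bile acid synthesis, fell from 70.9 to 135 TPM to 8.37 to 29.4 TPM (-2.55, limma adjusted p = 9.3e-05), Cyp2f2 by 0.86 (adjusted p = 0.00147) and Cyp2c29 by 0.79 (adjusted p = 0.00145). The lowest difference of the list, that of Cyp4a14, a fatty acid hydroxylase, was -3.01 and not past the threshold (95% interval -5.64 to -0.38, limma adjusted p = 0.0754). Of the same 18, 2 rose between Cd and Cd+Se, beside 13.6% of all genes tested. They were Cyp7a1, by 1.56 (limma adjusted p = 0.00722), and Cyp2d10, by 0.49 (adjusted p = 0.0469). Cyp2d10 was not called after centring (0.30, adjusted p = 0.0874), where 1 was higher and 2 were lower. The KEGG column of the deposited table places 41 genes in porphyrin metabolism, of which 36 were tested and 27 are not among the 9. Of these 27, as deposited, 1 rose and 9 fell after Cd (median -0.19), beside 5.82% and 24.9% of all genes tested. Between Cd+Se and Cd 6 rose and 1 fell (median 0.28), beside 13.6% and 2.35%.

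The antioxidant factor NRF2 is a known inducer of Hmox1. Of 7 other NRF2 targets tested, 1 rose after Cd, beside 5.82% of all genes tested. It was Gclm of glutathione synthesis (0.63, limma adjusted p = 0.0205), and after centring 2 were higher. None was called between Cd+Se and Cd, where 3 of 7 had an unadjusted p under 0.05 and 1 was higher with quantile normalization. The median log2 difference of the 7 was 0.10 after Cd and 0.35 between Cd+Se and Cd. Slc7a11, an eighth, had a mean under 1 TPM and was not tested.

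The genes whose pattern over the 16 libraries came nearest to each enzyme were found from centred log2 values, by the root mean square difference. For Alas1, whose own SD over the libraries was 0.86, they were Tppp (0.30), Gm45819 (0.35) and Pex26 (0.35). For Hmox1 (SD 0.88) Cxcl2 (0.30) and Clec4n (0.37) were among the nearest, and for Cpox (SD 0.47) they were Def8 (0.13), Creb3l3 (0.15) and Fpgs (0.15). For Blvrb (SD 0.27) they were Gpx4 (0.12), Mdm2 (0.13) and Crls1 (0.14). Tppp, Gm45819 and Cxcl2 had means of 1.44 to 3.11 TPM, low enough that their log2(TPM + 1) values are compressed. Of the other members, Urod came nearest to U2surp (0.09), Foxn2 (0.09) and Nsun2 (0.09), and Fech to C1ra (0.08), Prkcsh (0.09) and Mfsd14b (0.09). The nearest to Alad were Timm10b (0.14), Pebp1 (0.14) and Edf1 (0.15), to Uros Slc12a9 (0.13), Phyh (0.14) and Tmem250-ps (0.14), and to Ppox Krtcap2 (0.15), Sptlc2 (0.16) and H13 (0.16). These members and Blvrb had an SD of 0.19 to 0.29, so nearness says little for them.

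Because the median gene was lower in Cd libraries, each difference was read under 3 scalings. Alas1, Cpox and Hmox1 were called between Cd and control under all 3, Alas1 at -1.91, -1.98 and -1.69, Cpox at -1.01, -0.88 and -0.79, and Hmox1 at 0.81, 0.99 and 1.03 (as deposited, quantile normalized and centred). Ppox was also called under all 3. Between Cd+Se and Cd, Alas1 was at 1.15, 1.13 and 0.96, Hmox1 at 1.11, 0.98 and 0.92 and Alad at -0.51, -0.56 and -0.71, all of them called. Fech changed sign between Cd and control.

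**Figure D5:**
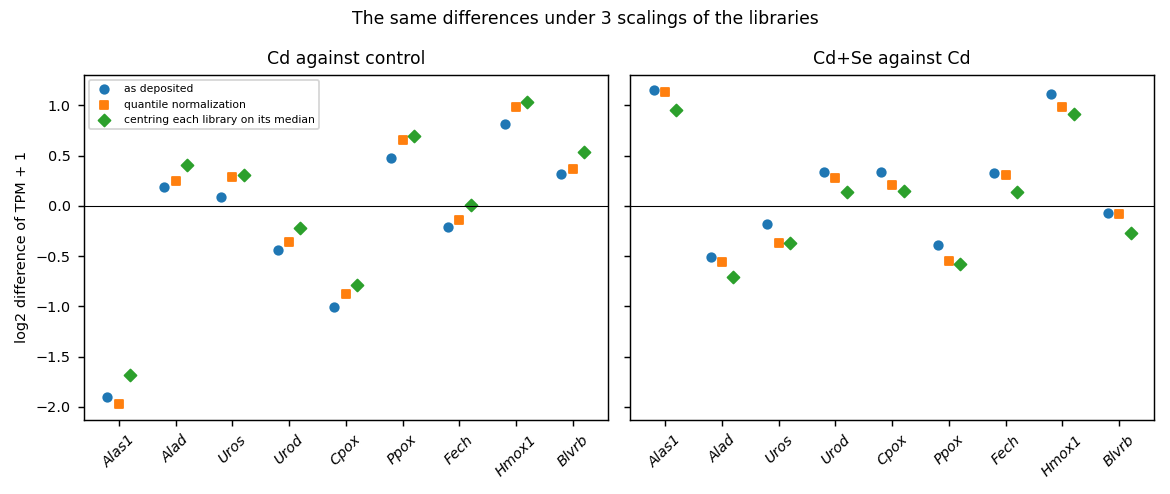
Log2 differences of TPM + 1 (vertical axis) of the 9 enzymes (horizontal axis) for Cd against control and Cd+Se against Cd, under the 3 scalings (circles as deposited, squares quantile normalized, diamonds centred on the library median). Alas1 stays between -1.98 and -1.69 on the left, and Fech moves from -0.21 to 0.01.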

How the data were processed

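Liver RNA of 16 mice was extracted with TRIzol, selected for poly(A) and sequenced. The authors deposited 1 table of TPM values per gene and mouse. The submitters' processing notes name fastp, HISAT2, StringTie and GRCh38, a human build, although the table lists mouse Ensembl identifiers, so its build is uncertain. TPM keep no depth, and precision rests on 4 mice per group, which were taken from the sample titles.

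log2(TPM + 1) of genes averaging 1 TPM or more was fitted with limma 3.58.1 (R 4.3.3) with 4 group means and an eBayes trend. The 6 comparisons were Cd, Cd+Se and Se against control, Cd+Se against Cd and against Se, and the interaction. P-values were Benjamini-Hochberg adjusted over all genes tested (threshold 0.05). Differences are the group named first minus the second and understate changes of low genes. Count tests could not be used. The steps were tested on simulated data.

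The members, gene lists and tests were chosen with earlier results of these data known. Named were the 9 members, Alas2, Hmox2, Blvra, Mt1, up to 3 called genes of each list with the largest change in Cd against control and in Cd+Se against Cd, and the 3 genes nearest each member. Cyp4a14, Slc7a11 and Ly6g are named besides, after their values were seen. A few genes that these rules would name or list are not reported here, and the list of synthesis genes was shortened accordingly. Alternatives were a pseudocount of 0.1, no filter, an average of 5 TPM or more, quantile normalization, centring, the compared groups alone, no trend, a log2 difference of at least 1, and leaving out each mouse. Added after seeing the data were protein-coding genes only and leaving out Cd mouse 5 and Se mouse 40.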

Additional observations from a re-analysis of the deposited data

Results flagged for a closer look

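In 6 of 48 sets of 4 mice (the 9 members, Alas2, Hmox2 and Blvra in each group), the gap between the outermost mouse and the rest, as a share of the range, was above Dixon's 95% critical value, where chance gives about 2.4. For Alas1 in Cd+Se the share was 0.834, with mouse 14 at 859.9 TPM and the others at 453 to 521 TPM. Cpox in Se mouse 41 (0.923) was at 54.9 TPM against 46.3 to 46.9 TPM, and Ppox in Se mouse 40 (0.855) at 15.02 TPM against 11.99 to 12.4 TPM. Fech in Cd+Se mouse 15 (0.908) was at 83.5 TPM against 102 to 104 TPM. Blvrb in control mouse 29 (0.931) was at 104 TPM against 96.5 to 97.1 TPM. Hmox2 in Cd mouse 5 (0.848) was at 20.9 TPM against 30.5 to 32.2 TPM.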

How the results depend on the processing

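Of the 9 genes, 5 were called between Cd and control, 3 without the filter on low values and 2 with a log2 difference of at least 1 required. Over all genes tested, the counts were 3619 of 11766, 3036 of 27943 and 376 of 11766 in the same order. Leaving out single mice gave 2 to 5 (2 without control mouse 29 and 3 without Cd mouse 6, where all genes gave 2588 and 3193). Between Cd+Se and Cd, 3 were called, 5 with quantile normalization and 1 when these groups were fitted alone, and 3 without any single mouse. All genes tested gave 1876, 2078 and 66 calls in the first 3 of these settings, so calls of all genes also fell when fitted alone. For Cd+Se against control, 1 was called, 2 with quantile normalization or protein-coding genes only, and 1 to 2 without single mice (2 without Cd+Se mouse 15). Over all genes these settings gave 57, 104, 72 (of 10483) and, without mouse 15, 103 calls. For Cd+Se against Se, 1 was called, 0 when fitted alone, and 1 to 2 without single mice (2 without Cd+Se mouse 15). All genes gave 84, 11 and, without mouse 15, 193 calls. For the interaction, 0 were called, 1 with quantile normalization and 3 after centring (Alad, Ppox and Blvrb). Leaving out single mice gave 0 to 1 (1 without Se mouse 40 or 44). Over all genes the first 3 settings gave 122, 524 and 731 calls, and those without Se mouse 40 and 44 gave 348 and 27. Without Cd mouse 5 and Se mouse 40 together, 5 and 3 were called in the first 2 comparisons, and 3073 and 1227 of all genes. The causes were not tested.

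Differences near 0 changed sign, none of them past the threshold. For Se against control, Hmox1 was at -0.0039 with quantile normalization and -0.21 to 0.14 without single mice, negative without control mouse 29 (-0.070) or Se mouse 40 (-0.21, also with Cd mouse 5 left out). Alad was at -0.015 to 0.049 without single mice, negative without control mouse 28 (-0.0054), Se mouse 40 (-0.0066, also with Cd mouse 5 left out) or Se mouse 44. Urod was at -0.12 to 0.047, positive without control mouse 29 or Se mouse 41 or 44. Alas1 was at -0.35 to 0.092, positive without control mouse 30 or Se mouse 39 or 41. Fech was at -0.091 to 0.0045, positive without Se mouse 39. For Cd+Se against Se, Ppox was at -0.24 to 0.016, positive without Cd+Se mouse 15, and Urod at -0.16 to 0.0044, positive without Se mouse 40, alone or with Cd mouse 5. Fech between Cd and control was at 0.013 after centring. No paired analysis was possible because the groups share no mouse numbers. Depth is unknown, and 4 mice per group limit what can be detected.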
